A study of Drosophila melanogaster with 8 samples.

Results

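The genes described here are 82 transcripts of the eye-antennal imaginal disc of Drosophila melanogaster that were abundant in RasV12 scrib tumours and low in discs of the same tumour genotype in which the kinase JNK was blocked. They were chosen by measured levels in 5 libraries, out of 15348 genes counted. A gene had to reach 5 CPM (a gene's count over the sum of all gene counts in that library, scaled as counts per 1000000) in both the late and the early tumour. It also had to stand in both tumours at least 2.5-fold above the RasV12 library and the control library, after 0.1 CPM was added to every value. Its level in the JNK-blocked tumour genotype had to be at most 0.4 times that in each tumour. Of the 10032 genes that reached 1 CPM in at least 1 library, 121 met the tumour part of the rule and 96 met all of it, which is 0.957% of the genes considered. The JNK-block part was met by 79.3% of those 121 genes, against 3.23% of the 7131 genes at 5 CPM or more in both tumours. From the 96, 14 known tumour genes were set aside by name, among them upd1, upd2, upd3, Ilp8, Mmp1, Ets21C and puc, and the remaining 82 are the subject here. The JNK-blocked tumour genotype, RasV12 scrib BskDN, is called by either name below. Because these levels did the choosing, the contrasts among those 5 libraries are given as a description and carry no test.

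Each group was 1 library of RNA from the pooled discs of 50 to 60 wandering larvae of the third instar, so no value below has a replicate and no p-value can be given. The groups were RasV12 scrib BskDN at 6 days after egg laying (UAS-Ras[V12], UAS-BSK[DN] and scrib[2]), RasV12 scrib at 11 days (the late tumour) and at 7 days (the early tumour, with UAS-Ras[V12] and scrib[2] in both), a scrib wing disc library at 6 days, scrib BskDN at 6 days (UAS-Bsk[DN] and scrib[2]), BskDN at 11 days (UAS-Bsk[DN]), RasV12 at 5 days (UAS-Ras[V12]) and the control at 5 days. The genotype labels of the 4 eye-antennal groups with scrib[2] break off after that allele, so the rest of those genotypes is not known here. All 7 eye-antennal groups, the control included, carried y, w, eyflp, the act>y+>Gal4 driver, UAS-GFP and an FRT82 e, tub-GAL80 chromosome over FRT82. In that system the eyeless-driven recombinase makes clones in the eye-antennal disc, the transgenes act in the cells that have lost GAL80, and cells that keep GAL80 stay in the disc. The scrib wing library came from w/+ larvae with FRT82 e scrib[2] over scrib[1], so the mutant cells were not clones and no transgene was present. No wing disc library of another genotype was analysed here, so tissue, clonality and genotype cannot be told apart in that library, and wing disc markers did not set it apart. The protocol shared by all groups names only eye-antennal discs as dissected, so the wing label of this library is in doubt. The wing selector vg had 2.10 CPM in scrib wing and 1.46 CPM in control, and nub had 3.50 and 5.40 CPM. The 9 matched wing markers summed to 662 CPM in scrib wing and 666 to 957 CPM elsewhere. Eye disc markers summed to 1000.04 CPM in scrib wing, against 961 CPM in the late tumour and 1479 to 2328 CPM in the other eye-antennal libraries. Antenna markers summed to 970 CPM in scrib wing, 659 and 803 CPM in the late and early tumours and 1212 to 1513 CPM in the rest. Photoreceptor markers were lowest in scrib wing, at 120 CPM against 262 to 963 CPM elsewhere. Age differed between most groups as well, and in pooled tissue fewer cells of a type and less RNA per cell cannot be told apart.

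JNK is a stress-activated kinase, encoded in the fly by basket (bsk), that switches on transcription through AP-1 and related factors during wound closure, cell competition and apoptosis. BskDN is a dominant-negative form of it. Cells that lack the polarity protein Scribble activate JNK and are normally eliminated from the disc. When the same cells also carry the activated oncogene RasV12 they survive, overgrow and invade, and JNK signalling is then known to promote the tumour state. The transgenes were seen where the labels put them. Reads assigned to bsk came to 1857 CPM (RasV12 scrib BskDN), 1694 CPM (scrib BskDN) and 718 CPM (BskDN), against 89.1 to 110 CPM in the other 5 libraries. Reads of Ras85D, the gene behind UAS-Ras[V12], came to 419 CPM (RasV12 scrib BskDN), 1194 CPM (late tumour), 669 CPM (early tumour) and 468 CPM (RasV12), against 255 to 274 CPM in the other 4. The level of scrib itself was 367 to 538 CPM in all 8 libraries and does not check the scrib labels.

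The libraries held 17152279 to 21027972 gene counts, and a single count equalled 0.0476 to 0.0583 CPM, while a count of 0 allowed up to 0.143 to 0.175 CPM. Intervals given below for single genes are exact 95% intervals of the ratio of 2 counts. They cover counting error only, and since reads are not independent molecules they may be narrower than the true error. Together the 82 genes took up 2437 CPM in the JNK-blocked tumour genotype, 16609 CPM in the late tumour, 11767 CPM in the early tumour, 8475 CPM in scrib wing, 2582 CPM in scrib BskDN, 2031 CPM in BskDN, 2345 CPM in RasV12 and 2390 CPM in control. The rule itself held RasV12 scrib BskDN, RasV12 and control below the tumours. Of the libraries it did not use, scrib BskDN and BskDN lay beside these low ones. Scrib wing lay between the low libraries and the tumours. The median member stood at 6.85 CPM in RasV12 scrib BskDN, 60.2 CPM late, 44.3 CPM early, 25.9 CPM in scrib wing and 5.94 CPM in control.

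**Figure D1:**
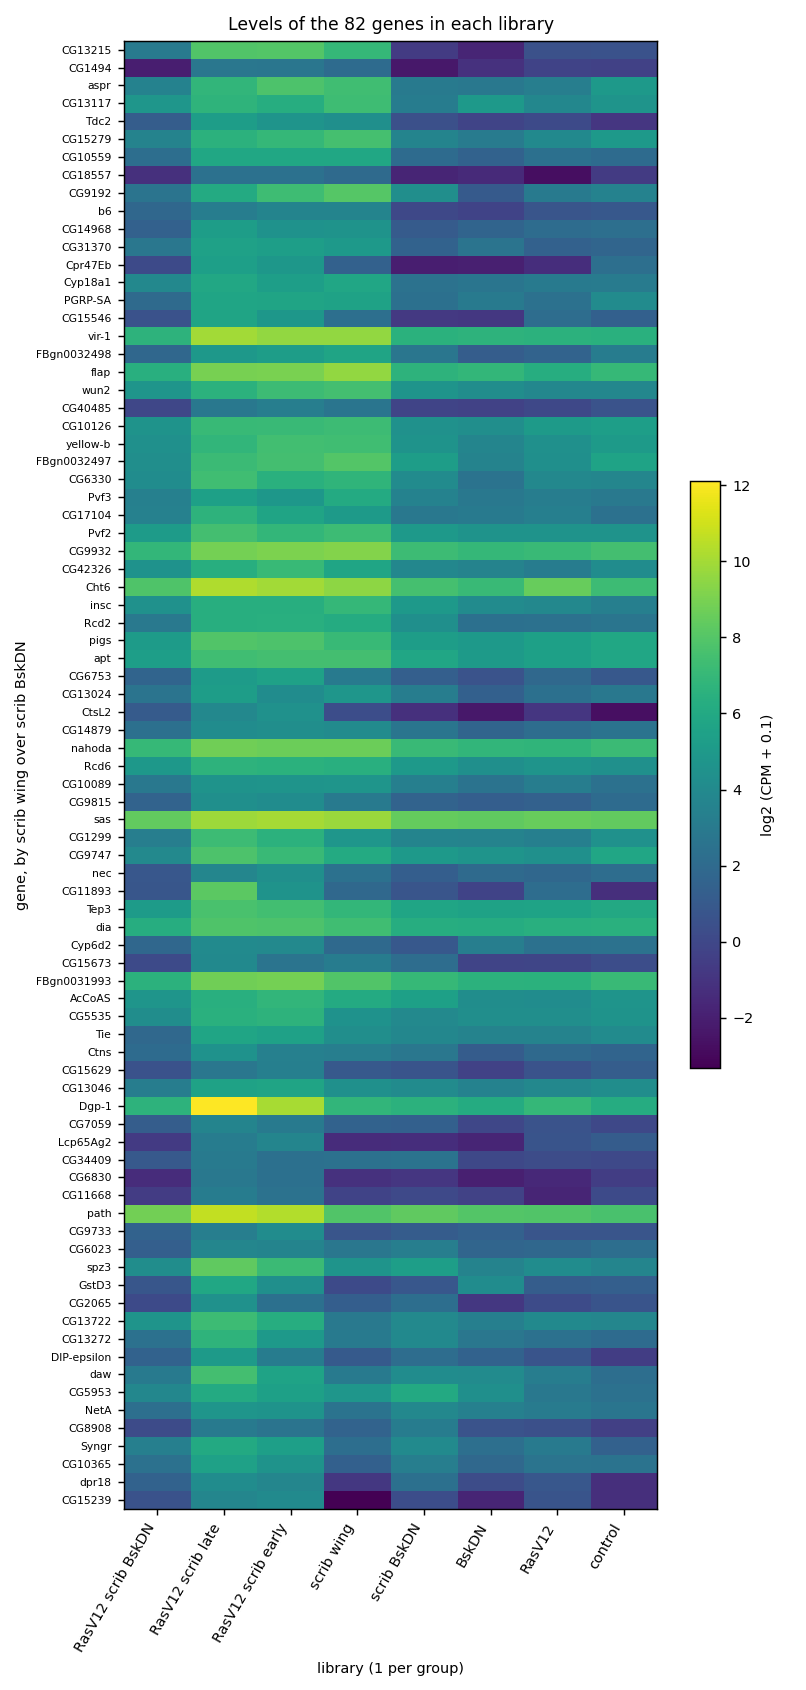
Level of each of the 82 genes (rows, ordered by scrib wing over scrib BskDN) in each of the 8 libraries (columns, 1 library per group), as colour on a log2 (CPM + 0.1) scale. The tumour columns are brighter than those of RasV12 scrib BskDN, RasV12 and control by construction. In the scrib wing column the upper rows are bright and the lower rows are not, and the columns of libraries with BskDN are dark in most rows.

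Secreted ligands were 5 of the 82. Pvf2 and Pvf3 encode PDGF- and VEGF-like ligands of the receptor tyrosine kinase Pvr. Pvf2 stood at 34.9 CPM in the JNK-blocked tumour genotype, 178 CPM in the late tumour, 117 CPM in the early tumour, 153 CPM in scrib wing, 33 CPM in scrib BskDN, 24.17 CPM in BskDN, 23.95 CPM in RasV12 and 23.94 CPM in control. Pvf3 stood at 10.2, 44.1, 28.9, 70.1, 11.2, 7.06, 9.10 and 7.40 CPM in the same 8 libraries. Both ligands were high in the late tumour, the early tumour and scrib wing, and no other library reached the lowest of those 3. The rule itself set the tumours above RasV12, control and the JNK-blocked tumour genotype. Only the places of scrib wing, scrib BskDN and BskDN were free, and scrib wing differs in labelled tissue and clonality too. In scrib wing relative to scrib BskDN, a pair of libraries the rule did not use, Pvf2 was 4.63-fold higher (4.25 to 5.05) and Pvf3 was 6.27-fold higher (5.43 to 7.26).

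The other ligands followed another order. Daw (dawdle) is an Activin-like ligand of the TGF-beta family. It had 7.61 CPM in the JNK-blocked tumour genotype, 182 CPM in the late tumour, 48.5 CPM in the early tumour, 7.70 CPM in scrib wing, 17.8 CPM in scrib BskDN, 17.1 CPM in BskDN, 9.0 CPM in RasV12 and 4.75 CPM in control. Its scrib wing level was thus among the low ones, 0.43 times that in scrib BskDN (0.351 to 0.529). The Spätzle-family gene spz3 had 19.0 CPM in the JNK-blocked tumour genotype, 323 CPM in the late and 149 CPM in the early tumour, followed by 25.1 CPM in scrib wing, 39.6 CPM in scrib BskDN, 11.9 CPM in BskDN, 17.9 CPM in RasV12 and 12.8 CPM in control. NetA, a netrin axon guidance cue, had 26.7 and 24.1 CPM in the late and early tumours and 5.71 CPM in scrib wing, against 14.8 CPM in scrib BskDN. All 3 of these ligands were lower in scrib wing than in scrib BskDN, daw and NetA by more than 2-fold and spz3 by less.

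**Figure D2:**
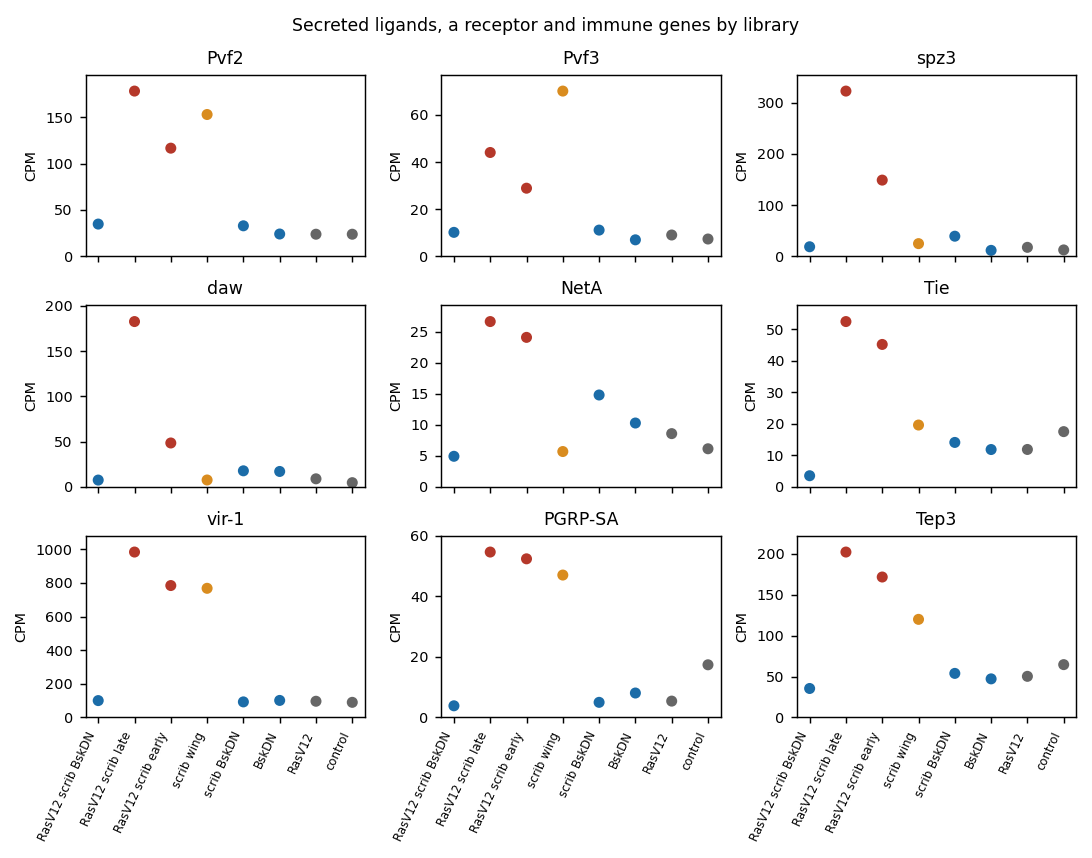
CPM (linear axis from 0, a separate scale for each gene) of 5 secreted ligands, the receptor Tie and 3 immune genes in each of the 8 libraries, 1 point per library. Blue marks libraries with BskDN, red the late and early tumours, orange scrib wing and grey RasV12 and control. Pvf2, Pvf3, vir-1 and PGRP-SA were high in scrib wing (153, 70.1, 768 and 47.0 CPM), and daw, spz3 and NetA were not.

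Among surface receptors, Tie, a receptor tyrosine kinase, had 3.57 CPM in the JNK-blocked tumour genotype, 52.5 CPM in the late tumour and 45.2 CPM in the early tumour, and lay at 19.6 CPM in scrib wing, 14.1 CPM in scrib BskDN, 11.9 CPM in BskDN, 11.9 CPM in RasV12 and 17.6 CPM in control. Its lowest level was the one in RasV12 scrib BskDN, 0.20 times its control level (0.156 to 0.262). Sas, a cell surface protein known as the ligand of the phosphatase Ptp10D in the elimination of scrib cells, had 334 CPM in the JNK-blocked tumour genotype, 918 CPM in the late tumour, 1036 CPM in the early tumour, with 866 CPM in scrib wing, against 326 to 359 CPM in scrib BskDN, BskDN, RasV12 and control. It was 2.48-fold higher in scrib wing than in scrib BskDN (2.41 to 2.55).

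The 82 included 4 immune genes. Vir-1, a virus-induced gene that depends on JAK/STAT signalling, had 100.3 CPM in the JNK-blocked tumour genotype, 984 CPM in the late tumour, 785 CPM in the early tumour, with 768 CPM in scrib wing, against 89.9 to 101 CPM in scrib BskDN, BskDN, RasV12 and control. PGRP-SA, a peptidoglycan recognition protein upstream of Toll, had 3.85 CPM in the JNK-blocked tumour genotype, 54.6 and 52.4 CPM in the late and early tumours and 47.0 CPM in scrib wing. It had 4.99 CPM in scrib BskDN, 8.07 CPM in BskDN, 5.40 CPM in RasV12 and 17.4 CPM in control. For vir-1 the values fell into 2 clear levels with none between, while PGRP-SA in control stood above the other low libraries. The thioester protein gene Tep3 had 35.4 CPM in the JNK-blocked tumour genotype, 202, 171 and 119.8 CPM in the late tumour, the early tumour and scrib wing, and 47.1 to 64.5 CPM in the remaining 4 libraries. Nec, a serpin that restrains Toll signalling, was low throughout, at 1.71 CPM in the JNK-blocked tumour genotype, 13.7 and 20.2 CPM in the late and early tumours and 5.31 CPM in scrib wing, against 2.30 to 4.38 CPM in the other 4. All 4 were at least 2-fold higher in scrib wing than in scrib BskDN, vir-1 by 8.30-fold (7.91 to 8.72), PGRP-SA by 9.43-fold (7.65 to 11.7), Tep3 by 2.23-fold (2.07 to 2.40) and nec by 2.31-fold (1.60 to 3.37). In this comparison 7.22% of the 7131 genes at 5 CPM or more in both tumours were at least 2-fold higher. Most of the 82 members were too, so counts by role here and below are not read as particular to a role. Hemocytes, the blood cells that attach to such tumours, also express immune genes. Of 15 hemocyte markers 13 were matched, none was at 0 in any library, and their summed level was 1873 CPM in RasV12 scrib BskDN, 1500 and 2092 CPM in the late and early tumours, 1612 CPM in scrib wing, 1544 CPM in scrib BskDN, 2119 CPM in BskDN, 997 CPM in RasV12 and 2764 CPM in control. Their part in the levels of the 4 genes was not tested.

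Genes of the cytoskeleton, the spindle and the centrosome were 5 of the 82. The formin gene dia had 79.4 CPM in the JNK-blocked tumour genotype, 227, 221 and 166 CPM in the late tumour, the early tumour and scrib wing, and 76.2 to 86.8 CPM in scrib BskDN, BskDN, RasV12 and control. Pigs, a Gas2-like protein that binds actin and microtubules, had 34.7 CPM in the JNK-blocked tumour genotype, 245, 226 and 134 CPM in those 3 libraries and 32.7 to 58.1 CPM in the remaining 4. Insc (inscuteable), which orients the spindle in dividing neuroblasts, had 22.1 CPM in the JNK-blocked tumour genotype, 82.6, 82.2 and 123 CPM in those 3 libraries and 10.1 to 32.9 CPM in the remaining 4. For each of these genes the late tumour, the early tumour and scrib wing lay above all the other libraries, for the tumours in part by the rule. Rcd2 and Rcd6, genes named from a screen for centrosome defects, stood at 7.37 and 30.3 CPM in RasV12 scrib BskDN, 82.5 and 99.0 CPM in the late tumour, 85.9 and 92.6 CPM in the early tumour, with 73.1 and 83.9 CPM in scrib wing. All 5 genes of this group were at least 2-fold higher in scrib wing than in scrib BskDN, from 2.08-fold for dia (1.96 to 2.22) to 3.73-fold for insc (3.42 to 4.08). That stands beside 7.22% of the 7131 genes and most of the 82.

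The transcription-related members were apt (apontic), a transcription factor known to dampen JAK/STAT signalling in the ovary, and CG9932, which the lists used here place with transcription factors. Apt had 39.5 CPM in the JNK-blocked tumour genotype, 164 CPM in the late tumour, 182 CPM in the early tumour, with 183 CPM in scrib wing, against 33.3 to 56.4 CPM in scrib BskDN, BskDN, RasV12 and control. CG9932 had 119.7 CPM in the JNK-blocked tumour genotype, 469 CPM in the late tumour, 524 CPM in the early tumour, with 616 CPM in scrib wing, against 124 to 181 CPM in those 4. CG9932 reached its highest level in scrib wing, above either tumour, while apt was level there with the early tumour. By plain CPM 14 of the 82 genes, apt included, stood higher in scrib wing than in either tumour, among them flap, wun2, insc and Pvf3. The share of all genes with this order is not given here, so nothing about the members is read from that count.

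Enzymes and transporters were 16 of the 82. Tdc2, a tyrosine decarboxylase of octopamine synthesis, had 2.24 CPM in the JNK-blocked tumour genotype, 38.7 CPM in the late tumour, 25.4 CPM in the early tumour, with 20.8 CPM in scrib wing, against 0.432 to 1.25 CPM in the other 4. Cyp18a1, the cytochrome P450 that inactivates ecdysone, had 14.8 CPM in the JNK-blocked tumour genotype, 60.9, 40.6 and 55.7 CPM in the late tumour, the early tumour and scrib wing, and 5.44 to 8.48 CPM in the other 4. Wun2, a lipid phosphate phosphatase, had 26.4 CPM in the JNK-blocked tumour genotype, 94.5, 154 and 179 CPM in those 3 libraries and 13.9 to 25.4 CPM elsewhere. These 3 were 16.6-fold (11.1 to 26.1), 10.2-fold (8.395 to 12.6) and 7.07-fold (6.43 to 7.78) higher in scrib wing than in scrib BskDN. In all, 7 of the 10 enzymes were at least 2-fold higher there with none lower, beside 7.22% and 9.55% of the 7131 genes. The glutathione S-transferase GstD3 was not among those 7 enzymes. It had 57.3 and 20.3 CPM in the late and early tumours but 0.991 CPM in scrib wing, against 1.75 CPM in scrib BskDN, and it stood at 17.7 CPM in BskDN, against 2.43 CPM in control. GstD3 has near-identical neighbours in its gene cluster, so reads may have been split among them and its counts are uncertain. Cyp6d2, another cytochrome P450 gene, had 3.52 CPM in RasV12 scrib BskDN, 16.4 and 15.2 CPM in the late and early tumours and 3.73 CPM in scrib wing, against 1.80 CPM in scrib BskDN and 9.49 CPM in BskDN. AcCoAS, which makes acetyl-CoA, had 26.01 CPM in RasV12 scrib BskDN, 85.8 and 112 CPM in the late and early tumours and 69.3 CPM in scrib wing, against 44.2 CPM in scrib BskDN and 18.9 CPM in BskDN. GstD3 and Cyp6d2 were thus higher in BskDN than in any other library outside the tumours.

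Serine protease genes were 5 of the 82 and low in most libraries. CG1299 was the highest of them, with 9.46 CPM in RasV12 scrib BskDN, 151 and 95.5 CPM in the late and early tumours, 27.98 CPM in scrib wing and 9.90 to 22.1 CPM in the other 4. The remaining CG9733, CG11668, CG18557 and CG34409 had 5.15 to 17.8 CPM in the tumours. In scrib wing relative to scrib BskDN, CG1299 and CG18557 were at least 2-fold higher and the other 3 were within 2-fold.

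Of the transporters, the SLC36-type amino acid transporter path (pathetic) had the second highest mean tumour CPM of the 82. It had 460.1 CPM in the JNK-blocked tumour genotype, 1651 CPM in the late tumour, 1279 CPM in the early tumour, with 246 CPM in scrib wing, against 202 to 319 CPM in scrib BskDN, BskDN, RasV12 and control. Of the 12 members with the highest tumour CPM, path and CG13215 were at least 2-fold above control in RasV12 scrib BskDN, path at 2.27-fold (2.19 to 2.36). Its scrib wing level was 0.77 times that in scrib BskDN (0.742 to 0.802). The SLC6-type transporter CG15279 behaved differently, with 94.8 and 122 CPM in the late and early tumours and 185 CPM in scrib wing, against 12.5 CPM in scrib BskDN, a 14.8-fold difference (13 to 16.9). The ABC transporter genes CG1494 and CG8908 differed in opposite directions. CG1494 had 4.02 CPM in scrib wing and 0.0998 CPM (2 counts) in scrib BskDN, while CG8908 had 2.92 CPM in scrib wing and 8.99 CPM in scrib BskDN, where it stood above both tumours (8.02 CPM late and 6.03 CPM early).

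The member with the highest CPM in the late tumour was Dgp-1, which encodes a GTP-binding protein. It had 101 CPM in the JNK-blocked tumour genotype, 4400 CPM in the late tumour, 1100 CPM in the early tumour, 116 CPM in scrib wing, 97.0 CPM in scrib BskDN, 72.2 CPM in BskDN, 125 CPM in RasV12 and 73.4 CPM in control. Scrib wing was within 2-fold of scrib BskDN and BskDN, at 1.19 times scrib BskDN (1.12 to 1.27) and 1.60 times BskDN (1.49 to 1.71). Per kilobase of exon, which allows genes to be compared, Dgp-1 had 1482 CPM in the late tumour and 370 CPM in the early tumour, and the short gene CG13215 had 387 and 403 CPM. CG13215, an uncharacterised gene, had 7.89 CPM in the JNK-blocked tumour genotype, 240.5 CPM in the late tumour, 250.5 CPM in the early tumour, with 124 CPM in scrib wing, against 0.203 to 1.35 CPM in scrib BskDN, BskDN, RasV12 and control. Its scrib wing level was 226-fold that in scrib BskDN (126 to 453), the widest such difference among the 82.

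Chitin and cuticle genes were Cht6, a chitinase gene, with 228 CPM in the JNK-blocked tumour genotype, 1235 CPM in the late tumour, 986 CPM in the early tumour, with 707 CPM in scrib wing, against 141 to 361 CPM elsewhere, and the larval cuticle genes Cpr47Eb and Lcp65Ag2. Cpr47Eb had 0.999 CPM in the JNK-blocked tumour genotype, 41.7 and 28.3 CPM in the late and early tumours, 2.62 CPM in scrib wing and 0.150 to 4.92 CPM in the other 4. Lcp65Ag2, which has a near-identical copy and so an uncertain count, stayed at 0.203 to 2.16 CPM outside the tumours and reached 8.72 and 12.7 CPM in the late and early tumours. Cht6 and Cpr47Eb were at least 2-fold higher in scrib wing than in scrib BskDN and Lcp65Ag2 was not.

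Genes of the synapse and of neural recognition stood apart from the other groups. Syngr, the synaptic vesicle protein synaptogyrin, had 10.1 CPM in the JNK-blocked tumour genotype, 67.4 CPM in the late tumour, 42.2 CPM in the early tumour, 4.61 CPM in scrib wing, 16.5 CPM in scrib BskDN, 4.87 CPM in BskDN, 8.15 CPM in RasV12 and 2.65 CPM in control. DIP-epsilon and dpr18 belong to the interacting Dpr and DIP families of immunoglobulin surface proteins. DIP-epsilon had 33.9 and 8.90 CPM in the late and early tumours and 1.98 CPM in scrib wing, against 4.49 CPM in scrib BskDN. Dpr18 had 17.7 and 13.2 CPM in the late and early tumours and 0.466 CPM in scrib wing, against 4.99 CPM in scrib BskDN. All 3 were at least 2-fold lower in scrib wing than in scrib BskDN and at least 2-fold higher in RasV12 scrib BskDN (DIP-epsilon and dpr18 at 2.76 CPM each) than in control (0.594 and 0.324 CPM). Over the 7131 genes, 9.55% were lower in the first of these comparisons and 2.44% higher in the second. Other members, among them daw and NetA, were also at least 2-fold lower in the first, so it is not read as particular to this role. The neuronal markers also differed between these libraries. Of 10 markers 8 were matched, none was at 0, and their sum was 356 CPM in the JNK-blocked tumour genotype, 633 CPM in the late tumour, 144 CPM in the early tumour, 102 CPM in scrib wing, 612 CPM in scrib BskDN, 310 CPM in BskDN, 317 CPM in RasV12 and 175 CPM in control. All 8 were at least 2-fold higher in the late than in the early tumour, and all 8 were at least 2-fold lower in scrib wing than in scrib BskDN. Their part in the order of these 3 genes was not tested.

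No role is given here for 31 of the 82 genes. Flap had 484 and 514 CPM in the late and early tumours and 780.5 CPM in scrib wing, against 98.4 CPM in scrib BskDN, and aspr had 113 CPM in the late tumour, 225 CPM in the early one, 164 CPM in scrib wing and 7.89 CPM in scrib BskDN. Flap was 7.93-fold higher in scrib wing than in scrib BskDN (7.57 to 8.32) and aspr 20.8-fold (17.7 to 24.6). CG5953 was an exception, with 26.9 CPM in scrib wing and 66.9 CPM in scrib BskDN, close to the 69.1 CPM of the late tumour and above the 44.0 CPM of the early one. CG15239 had no count in scrib wing against 1.15 CPM in scrib BskDN, so it was at least 6.56-fold lower there, taking 3 counts as the limit. In all, 20 of the 31 were at least 2-fold higher in scrib wing than in scrib BskDN and 5 were at least 2-fold lower, beside 7.22% and 9.55% of the 7131 genes. Of 4 ecdysteroid kinase-like genes 3 passed 2-fold upwards: CG31370 and CG10559 were 11.5-fold (8.69 to 15.4) and 14.5-fold (11.6 to 18.4) higher, CG11893 was 2.34-fold higher and CG6830 was within 2-fold.

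Within the tumour contrast that chose them, the members' JNK-blocked levels covered a range. In RasV12 scrib BskDN 53 of the 82 genes lay at or below the higher of RasV12 and control, and 42 lay below control. Relative to control, 14 were at least 2-fold higher and 12 at least 2-fold lower in RasV12 scrib BskDN, beside 2.44% and 3.10% of the 7131 genes at 5 CPM or more in both tumours. The members' median log2 ratio was -0.11, beside 0.02 over all genes considered. Only 7 were higher where at least 5 CPM was asked of the higher library. The share of all genes is not given for the 53 and the 42. Nothing is read from these counts and shares, since the libraries entered the rule. In RasV12 scrib BskDN, CG13215, CG31370, Tdc2 and CtsL2 stood at least 2 times above both RasV12 and control. CtsL2, a cathepsin L-like gene, had 2.09 CPM in the JNK-blocked tumour genotype and 14.9 and 21.8 CPM in the late and early tumours, against 0.0540 CPM (1 count) in control. By plain CPM the genes furthest below control were Tie, Cpr47Eb and CG1494, each at 0.20 times control (0.156 to 0.262 for Tie, 0.120 to 0.329 for Cpr47Eb and, on 3 counts against 13, 0.0371 to 0.739 for CG1494). PGRP-SA came next at 0.22 times (0.171 to 0.283).

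**Figure D3:**
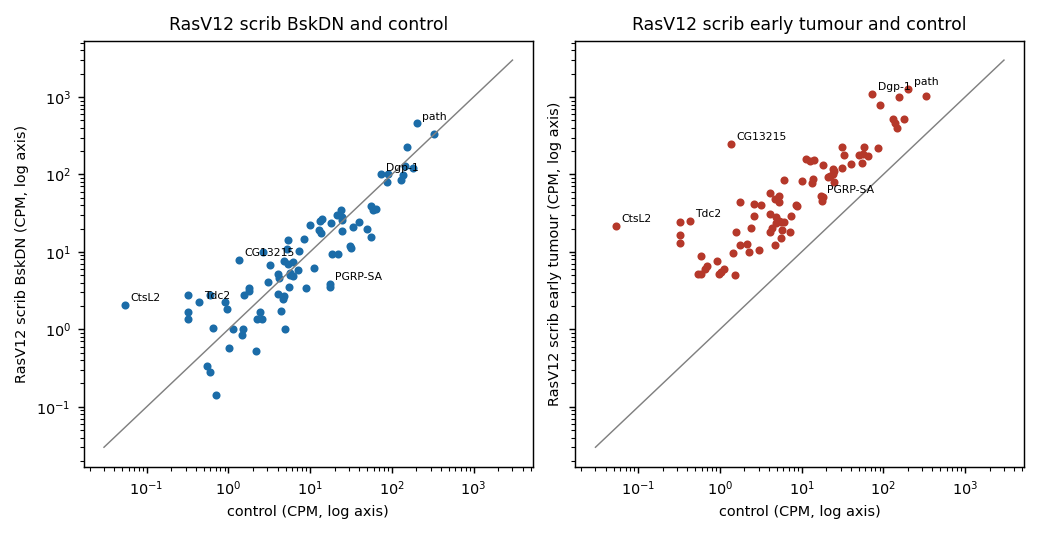
Level of each of the 82 genes in RasV12 scrib BskDN (left panel, blue) and in the early tumour (right panel, red) against its level in control, both in CPM on log axes, 1 point per gene. The grey line marks equal levels. Points of the early tumour lie above the line by the rule, while those of RasV12 scrib BskDN lie on both sides of it.

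The scrib wing and scrib BskDN libraries took no part in choosing the genes, and both held scrib mutant tissue. Between them 51 of the 82 genes were at least 2-fold higher in scrib wing and 11 were at least 2-fold lower, with a median log2 ratio of 1.42. Over the 7131 genes at 5 CPM or more in both tumours 7.22% were higher and 9.55% lower, the median being -0.06, and over all genes considered 8.71% and 22.3%, the median being -0.18. The scaling of this pair matters for the whole table, where 43.1% of the calls among the 7131 genes were higher by plain totals, 60.6% with TMM factors and 55.5% with DESeq2 size factors. The members' counts were 53 and 7 with TMM and 53 and 8 with DESeq2. The genes furthest up were CG13215, CG1494, aspr, CG13117 and Tdc2, and those furthest down CG15239, dpr18, CG10365, Syngr and CG8908. Salivary gland markers, all 7 matched and none at 0, summed to 38.4 CPM in scrib wing and 1138 CPM in scrib BskDN. Photoreceptor markers, 9 of 11 matched with 1 at 0 in scrib wing, summed to 120.2 CPM there and 963 CPM in scrib BskDN. Eye disc markers, all 9 matched and none at 0, summed to 1000.04 and 2328 CPM in these libraries, and fat body markers, all 10 matched with 1 at 0 in each, to 172.5 and 731.5 CPM. The part of these markers, and of the neuronal ones above, in the members' ratios was not tested.

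Relative to BskDN, scrib wing held 59 of the 82 genes at least 2-fold higher and 5 at least 2-fold lower, with a median log2 ratio of 2.13, beside 4.91% and 6.44% of the 7131 genes and 8.71% and 12.6% of all considered. The 5 lower genes were GstD3, CG15239, Cyp6d2, daw and dpr18. The fat body markers, of which all 10 were matched, summed to 172.5 CPM in scrib wing with 1 at 0 and to 5299 CPM in BskDN with none at 0, and their part was not tested. Both comparisons share the scrib wing library, so they are not independent. Over both, 49 genes were at least 2-fold higher in scrib wing than in either, beside 3.00% of the 7131 genes and 4.44% of all considered. Of the remaining 33 members, 2 passed over scrib BskDN alone (nec and Cyp6d2), 10 over BskDN alone (among them spz3, AcCoAS and Ctns) and 21 over neither (among them Dgp-1, path, daw, NetA and Tie). Against control, a library the rule used, 50 members were at least 2-fold higher in scrib wing and 4 at least 2-fold lower, beside 3.45% and 5.75% of the 7131 genes. Muscle markers, 13 of 15 matched and none at 0, summed to 2069 CPM in scrib wing and 7181 CPM in control.

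**Figure D4:**
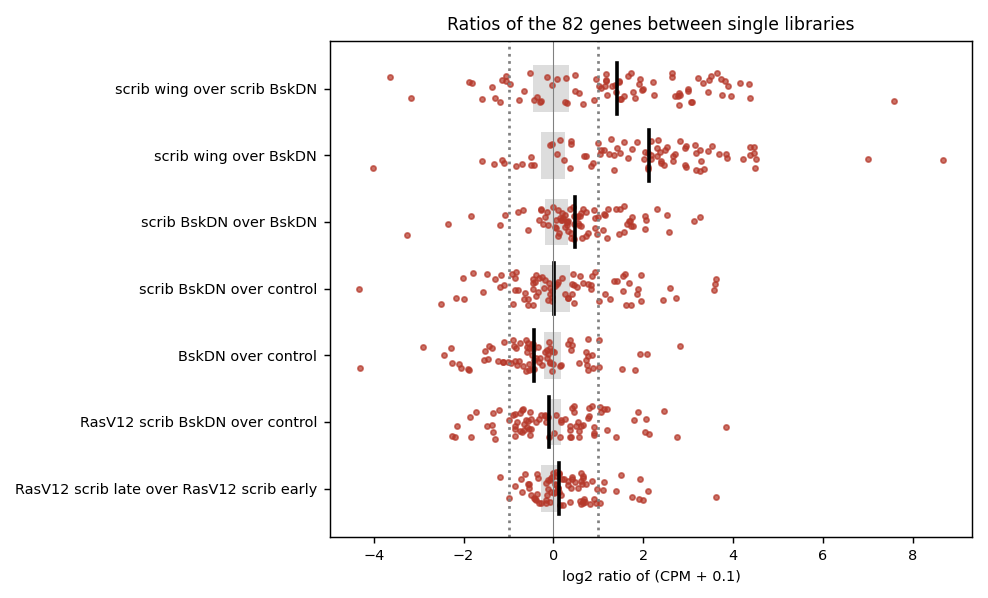
Log2 ratio of (CPM + 0.1) of each of the 82 genes (red points, spread vertically for legibility) in 7 comparisons of single libraries. Black lines are the members' medians, grey bars the interquartile range of the 7131 genes at 5 CPM or more in both tumours, and dotted lines 2-fold. Medians lie at 1.42 and 2.13 for scrib wing over scrib BskDN and over BskDN, and within 2-fold in the other comparisons.

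Both scrib BskDN and BskDN carried the BskDN transgene, and neither entered the rule. Among the set-aside genes, puc had 122 CPM in scrib BskDN and 39.7 CPM in BskDN, Mmp1 175 and 104.5 CPM, and Ets21C 15.8 and 3.00 CPM. In control puc had 46.7 CPM, Mmp1 69.0 CPM and Ets21C 1.84 CPM, each below its level in scrib BskDN. Only upd1 and Tig of the set-aside genes were lower in scrib BskDN. How far JNK output was blocked in either library was not tested. In scrib BskDN relative to BskDN, 24 of the 82 genes were at least 2-fold higher and 5 at least 2-fold lower, with a median log2 ratio of 0.49, beside 4.53% and 3.41% of the 7131 genes and 16.0% and 5.63% of all considered. The members furthest up were CG2065, with 4.74 CPM in scrib BskDN and 0.457 CPM in BskDN, and CG9192, with 19.9 and 1.98 CPM, which made them 10.4-fold (5.24 to 23.4) and 10.1-fold (7.23 to 14.4) higher. Rcd2 was 4.16-fold higher (3.33 to 5.24) and spz3 3.32-fold (2.87 to 3.85), and GstD3 was the furthest down at 0.10 times BskDN (0.0678 to 0.140). The libraries differed in age, 6 and 11 days, which cannot be told apart from genotype. Fat body markers summed to 731.5 CPM in scrib BskDN and 5299 CPM in BskDN, salivary gland markers to 1138 and 19.3 CPM, and neuronal markers to 612 and 310 CPM, and their part in these ratios was not tested. In scrib BskDN 3 members reached the level of the lower tumour (CG5953, CG8908 and CG34409), and in BskDN none did. Against control, scrib BskDN held 21 members at least 2-fold higher and 12 at least 2-fold lower (4.88% and 6.13% of the 7131 genes), and BskDN held 7 higher and 19 lower (1.65% and 3.32%). Keeping genes at 5 CPM or more in either library left 12 of the 21 higher for scrib BskDN and 3 of the 7 for BskDN. A pseudocount of 1 CPM left 4 for BskDN. The higher count thus rests mostly on low levels in BskDN but only in part in scrib BskDN, where CG5953 had 66.9 CPM against 5.35 CPM in control. By plain CPM the genes furthest below control in BskDN were Cpr47Eb, Lcp65Ag2 and CG13215, with 3 or 4 counts each in BskDN.

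The late and early tumours both entered the rule, so their difference is a description. Of the 82 genes 11 were at least 2-fold higher in the late tumour and 1 was at least 2-fold lower, beside 5.19% and 1.05% of the 7131 genes. The members' median log2 ratio was 0.13, beside -0.04 over all genes considered. CG11893, 1 of the ecdysteroid kinase-like genes, was the furthest up at 297 CPM late against 23.97 CPM early, 12.4-fold (11.3 to 13.6). CG2065, Dgp-1, DIP-epsilon and daw followed, at 4.37-fold (3.52 to 5.46), 4.001-fold (3.94 to 4.06), 3.81-fold (3.23 to 4.51) and 3.76-fold (3.51 to 4.04). CG9192 was the gene at least 2-fold lower, at 68.3 CPM late and 157 CPM early. The next lowest were aspr, CG9733, CG42326 and wun2. Of the 49 genes at least 2-fold above both scrib BskDN and BskDN in scrib wing, 2 were at least 2-fold higher in the late than in the early tumour and 1 was lower, with a median log2 ratio of 0.05. Of the other 33, 9 were higher, none was lower and the median was 0.48. These groups were drawn after the values were seen and the difference between them was not tested.

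**Figure D5:**
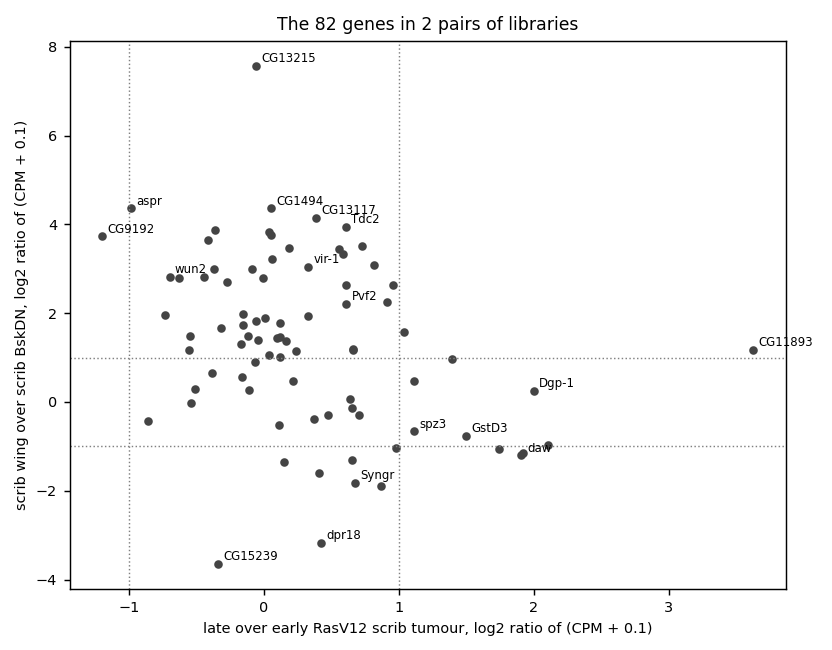
Log2 ratio of (CPM + 0.1) in scrib wing over scrib BskDN (vertical axis) against the late over the early tumour (horizontal axis) for each of the 82 genes, with dotted lines at 2-fold. Most points lie between the vertical dotted lines, and of the 5 genes furthest right (CG11893, CG2065, Dgp-1, DIP-epsilon and daw) CG11893 is the only 1 above the upper dotted line.

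None of the 82 was on a list of 27 known JNK and AP-1 genes. Between RasV12 scrib BskDN and the tumours, 13 of the 27 were at least 2-fold lower than in the late tumour and 11 lower than in the early tumour, beside 17.1% and 8.20% of all genes considered. The list holds genes that met the same rule but were left out by name. That none of the 82 is on it follows in part from that choice, and these counts are no independent evidence. In scrib wing relative to scrib BskDN, 6 were at least 2-fold higher and 4 at least 2-fold lower, with a median log2 ratio of 0.00, beside 8.71% and 22.3% of all genes considered. The 4 lower ones were bsk, whose reads in scrib BskDN include the transgene, and Traf4, egr and Tab2. The targets puc, the JNK phosphatase, and Mmp1, a matrix metalloproteinase, had 201 and 1078 CPM in scrib wing, against 122 and 175 CPM in scrib BskDN. In scrib wing relative to BskDN 10 of the list were at least 2-fold higher and 3 lower. Over all genes considered the shares were 8.71% and 12.6%, and over the 7131 genes 4.91% and 6.44%. In scrib BskDN relative to BskDN 6 were higher and none lower. There the shares were 16.0% and 5.63% over all genes considered, and 4.53% and 3.41% over the 7131 genes. Of 13 JAK/STAT genes other than vir-1, 4 were at least 2-fold higher and 1 lower in scrib wing relative to scrib BskDN, beside the same 8.71% and 22.3%. Among them the ligand upd1 had 49.6 CPM in scrib wing against 3.44 CPM in scrib BskDN, and the feedback inhibitor Socs36E had 254 against 99.9 CPM. Both met the same rule and were left out by name, so this count is no independent evidence either. The 14 set-aside genes themselves gave 11 higher, none lower and a median of 2.60. The 25 genes that met the tumour part of the rule but not the JNK-block part gave 8 higher, 8 lower and a median of 0.51, and the difference from the members was not tested. Over the 7131 genes at 5 CPM or more in both tumours, 7.22% were higher and 9.55% lower in this pair.

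The thresholds of the rule fell inside a continuous spread of values. By level, the members nearest the 5 CPM line were CG2065 at 5.06 CPM and CG6830 and CG34409 at 5.15 CPM in the lower tumour, and Gr94a at 4.96, AstC at 4.86 and Poxm at 4.13 CPM failed by level alone. By fold, CG13024 (2.53), dia (2.54) and sas (2.56) were just inside, and spir (2.45), CG2975 (2.40) and CG42808 (2.37) just outside. By the ratio of RasV12 scrib BskDN to the tumour, Ctns (0.39), b6 (0.38) and Cyp18a1 (0.37) were just inside, and CG31955 (0.41), ITP (0.42) and CG13692 (0.42) just outside. In all, 69 genes failed on level alone, 131 on the tumour fold alone and 25 on the JNK-block ratio alone.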

How the data were processed

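RNA from pooled imaginal discs was sequenced for 8 groups, 1 library each. Per the submitters' processing notes, reads were handled with TopHat2 and HTSeq; the notes give no version, build, annotation or strand setting. The deposited values are raw counts per gene, not normalized by the authors. The 5 HTSeq tally rows were left out of library sizes; reads without a feature made up 3.41 to 7.33% and reads not uniquely aligned 14.8 to 27.8%. From the counts, CPM was computed over each column's gene sum, and ratios were taken as log2 of CPM plus 0.1; counts of genes called higher or lower take those at least 2-fold apart. Single-gene folds are ratios of plain CPM with exact 95% conditional binomial intervals. With 1 library per group edgeR's test could not be run, and edgeR 4.0.16 (TMM) and DESeq2 1.42.0 (size factors) served only for alternative scalings in R 4.3.3; the tables were built in Python 3.11.15 with pandas 2.3.3 and scipy 1.17.1, and the counting of calls was checked on simulated data. Symbols came from a table of gene identifiers, and neighbours from the BDGP6 annotation, which lacks 3 of the 82 identifiers (FBgn0031993, FBgn0032497 and FBgn0032498). Genes were named where they ranked highest by tumour level, by smallest fold or within a comparison, lay next to a threshold, stood in a pathway list or were near neighbours; genes beyond these were added after their values were seen, as were the role groups. The members and lists were chosen with earlier results of these data known. The search of promoters for motifs was not made.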

Additional observations from a re-analysis of the deposited data

How the results depend on the processing

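The number of genes the rule chose, the members at least 2-fold higher in 7 comparisons and the single-gene ratios among scrib wing, scrib BskDN and BskDN were recomputed under other settings, changing 1 at a time; list, role and marker values were not. With TMM factors the rule chose 77 genes, with DESeq2 size factors 79, with a pseudocount of 1 CPM 75, with a 10 CPM level 67 and from the early tumour alone 119. It chose 141 with folds of 2 and 0.5 (all 82 among them), 32 with folds of 4 and 0.25, and 495 from the late tumour alone. Members at least 2-fold higher numbered 44 to 53 in scrib wing over scrib BskDN, 50 to 60 in scrib wing over BskDN, 16 to 24 in scrib BskDN over BskDN and 10 to 12 in the late over the early tumour. Where only genes at 5 CPM or more were kept, the count was 12 for scrib BskDN over control, 3 for BskDN over control and 7 for RasV12 scrib BskDN over control, since fewer genes remained; with a pseudocount of 1 CPM it was 4 for BskDN over control. Of 246 single-gene log2 ratios, 50 moved by more than their counting interval with TMM, 35 with DESeq2 and 36 with a pseudocount of 1, and none of those called 2-fold changed sign. Another scaling shifted the median of all genes by 0.23 (TMM) and 0.16 (DESeq2) in scrib wing over scrib BskDN, by -0.18 and -0.14 in scrib BskDN over BskDN, and by -0.17 (TMM) in scrib BskDN over control. The balance of higher and lower calls among the 7131 genes turned over with the scaling in scrib wing over scrib BskDN (43.1% higher, 60.6% with TMM, 55.5% with DESeq2) and in scrib BskDN over BskDN (57.1% higher, 42.6% with TMM, 46.8% with DESeq2); the higher share was 44.3% in scrib BskDN over control (30.4% with TMM). No paired analysis was possible because each group had 1 library. Members below about 5 CPM rest on few counts, and no replicate shows how far libraries of a group vary.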

Other observations

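By the BDGP6 annotation, 79 of the 82 genes had a position, with 17 on 2L, 19 on 2R, 13 on 3L, 18 on 3R and 12 on X. The near neighbours below were picked out after the values were seen. Pvf2 and Pvf3 are adjacent genes on 2L, 13552 bp apart with no protein-coding gene between them, and both were high in the late tumour (178 and 44.1 CPM), the early tumour (117 and 28.9 CPM) and scrib wing (153 and 70.1 CPM). CG11893, CG31370 and CG10559 lie within a cluster of related genes on 3R, 11097 and 10507 bp apart, and while CG31370 and CG10559 were about as high in the late as in the early tumour (45.5 against 40.0 CPM and 59.5 against 58.0 CPM), CG11893 had 297 CPM late against 23.97 CPM early. CG6023 is next to upd1 on X, 4832 bp away, and had 2.47 CPM in the JNK-blocked tumour genotype, 13.4 CPM in the late tumour and 12.5 CPM in the early tumour, where upd1 had 7.70, 63.3 and 74.3 CPM. Those 3 libraries entered the rule; in scrib wing relative to scrib BskDN the pair parted, with CG6023 at 0.70 times (0.548 to 0.881; 6.71 and 9.63 CPM) and upd1 14.4-fold higher (11.3 to 18.7; 49.6 and 3.44 CPM). The annotation places 32 of the 82 genes across another gene, 29 of them on the opposite strand, and no label or header used here states a strand setting, so reads of such partners could not be told apart.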
